A study of Homo sapiens with 4 samples.

Results

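ALB, APOA1, APOB, FGB and TTR encode proteins that liver cells secrete. HBB, HBA1 and GATA1 belong to the red cell lineage, and CD3E belongs to T cells. They were chosen by name as 9 loci foreign to a breast cancer line, out of 19970 protein-coding genes, and every peak whose summit lay inside one of them or within 10 kb of either end was taken. This gave 21 of the 260678 peaks called on chromosomes 1 to 22 and X. The peaks come from STARR-seq in MDA-MB-231, an established human breast cancer cell line, which was given a plasmid library of its own fragmented DNA. In this assay a fragment with enhancer activity drives its own transcription from the plasmid, and the reporter RNA is sequenced. Cells received 10 µM SHP1705, which stabilizes the clock repressor CRY, together with 100 nM MG132, an inhibitor of the proteasome (the combination), or SHP1705 alone, MG132 alone, or the solvent DMSO. The RNA was taken at 8 h. Each treatment had 1 library and 1 peak list, and all 4 received the same plasmid transfection mix.

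With 1 library per treatment there was no spread between replicates and no test between treatments, so every difference below compares single libraries. The libraries held 28331486 fragments in the combination, 118324303 in SHP1705, 27289266 in MG132 and 29717604 in DMSO. Heights are given as the pileup, the number of fragments covering the summit, and as pileup per 1000000 fragments of the library (FPM). The lists held 57174, 85840, 69842 and 47822 peaks in the same order. The SHP1705 library stood apart by its depth and its low heights, with a median peak of 0.786 FPM, against 7.02 in the combination, 5.42 in MG132 and 8.04 in DMSO. The lowest pileup called anywhere was 0.424 FPM in the combination, 0.237 in SHP1705, 0.440 in MG132 and 0.437 in DMSO.

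In liver and in red cell precursors the genes of the secreted proteins and of the globins are among the most strongly transcribed. ALB, APOA1, APOB, FGB and TTR encode albumin, the main protein of high density lipoprotein, the structural protein of low density lipoprotein, the fibrinogen beta chain and the carrier of thyroid hormone and retinol. HBB and HBA1 encode the beta and alpha chains of adult hemoglobin, GATA1 the transcription factor that directs red cell and platelet development, and CD3E a signalling chain of the T cell receptor complex. On the chromosome of other cell types such genes are usually packed in inactive chromatin, which a plasmid fragment does not carry. The peak lists hold no measure of the genes' own expression, so whether the 9 genes were silent in these cells was not measured, and the line's identity could not be checked against its markers.

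The promoters of ALB, FGB and GATA1 are shown, the only ones of the 9 genes in the promoter table used, and no list had a peak over any of those printed. FGB has 2 windows in that table, of which the one at the annotated start of the gene is printed. The sequences are those of RefSeq on GRCh38.p14, 250 bases before to 50 after the start of transcription, all on the plus strand, and 3 of the 9 genes were matched. The ALB window lies at chr4:73404037-73404336, that of FGB at chr4:154562730-154563029 and that of GATA1 at chrX:48786340-48786639. Capitals mark every match on either strand to 6 motifs. The E-box CACGTG is bound by the clock activators that CRY represses. The TATA box was searched as TATAAA and the CCAAT box by its name. The motif CACCC is common in red cell promoters, and GATA factors bind AGATAA as well as its variant TGATAA.
ALB: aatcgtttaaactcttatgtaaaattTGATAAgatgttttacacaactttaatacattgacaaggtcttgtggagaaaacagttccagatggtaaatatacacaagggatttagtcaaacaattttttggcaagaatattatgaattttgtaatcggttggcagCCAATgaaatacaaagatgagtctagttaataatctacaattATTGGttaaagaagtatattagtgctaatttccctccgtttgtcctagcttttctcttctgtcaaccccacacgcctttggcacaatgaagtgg
FGB: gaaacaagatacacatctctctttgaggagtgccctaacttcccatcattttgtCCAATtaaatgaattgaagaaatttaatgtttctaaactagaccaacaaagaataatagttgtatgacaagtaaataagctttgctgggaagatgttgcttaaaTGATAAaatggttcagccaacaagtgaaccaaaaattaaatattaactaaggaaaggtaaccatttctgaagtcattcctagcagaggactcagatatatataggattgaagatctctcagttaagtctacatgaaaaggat
GATA1: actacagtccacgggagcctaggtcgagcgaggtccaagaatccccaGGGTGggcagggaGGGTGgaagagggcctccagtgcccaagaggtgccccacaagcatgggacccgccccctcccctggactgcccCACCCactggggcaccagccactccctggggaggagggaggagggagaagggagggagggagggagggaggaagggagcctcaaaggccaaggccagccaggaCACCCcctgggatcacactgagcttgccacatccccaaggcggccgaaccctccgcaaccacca

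The ALB promoter held TGATAA 224 bases before the start and CCAAT at 86 and, on the opposite strand, at 44 bases before it. The FGB promoter held CCAAT 196 and TGATAA 92 bases before the start. The GATA1 promoter held CACCC 4 times. Such matches are descriptions of the letters only. Of all 35116 promoter windows in the RefSeq table, 7.53% held TGATAA, 34.6% held CCAAT and 59.9% held CACCC. The E-box, in 7.26% of windows, the TATA box, in 11.5%, and AGATAA, in 10.3%, were in none of the promoters printed. The nearest summit in any list lay 2.66 kb from the ALB start (MG132), 3.61 kb from the FGB start (SHP1705) and 1.80 kb from the GATA1 start (MG132). None of the 21 peaks overlapped a promoter window of any gene in that table, which does not cover the other 6 of the 9 genes. Over whole lists 0.801% of peaks did so in the combination, 4.46% in SHP1705, 0.856% in MG132 and 0.843% in DMSO.

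Peaks lay near 7 of the 9 genes, and no list covered more than 6. The combination had a summit within 10 kb of 3 genes (ALB, GATA1 and CD3E), where 64.0% of all protein-coding genes had one. SHP1705 had one near 6 (ALB, APOA1, APOB, FGB, HBA1 and CD3E), against 88.4% of all genes. MG132 had one near 3 (ALB, GATA1 and CD3E), against 71.3%, and DMSO near 4 (ALB, APOB, GATA1 and CD3E), against 58.8%. The share of the 9 genes, 33.3% in the combination, 66.7% in SHP1705, 33.3% in MG132 and 44.4% in DMSO, was thus below that of all genes in each list. The 9 genes are short, however, with a median window of 27.7 kb, gene and flanks together, against 44.2 kb over all protein-coding genes. Only ALB and CD3E had a peak in all 4 lists, and these 2 genes held 10 of the 21 peaks. The shares of all protein-coding genes with a peak in any list, or in all 4, were not computed. Whether these counts differ from those of other genes is therefore not known.

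Counted per length of window, the difference from other genes was within counting error. In the 280 kb of the 9 windows the combination had 3 peaks, or 1.07 per 100 kb (exact Poisson 95% interval 0.221 to 3.13), against 1.74 over the windows of all protein-coding genes. SHP1705 had 8 peaks, or 2.86 per 100 kb (1.23 to 5.63), against 3.61. MG132 had 4, or 1.43 (0.389 to 3.66), against 2.19. DMSO had 6, or 2.14 (0.786 to 4.66), against 1.42, and was the only list in which the 9 windows held more peaks per length than those of other genes. The intervals cover counting error only, and each holds the value of all genes.

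**Figure D1:**
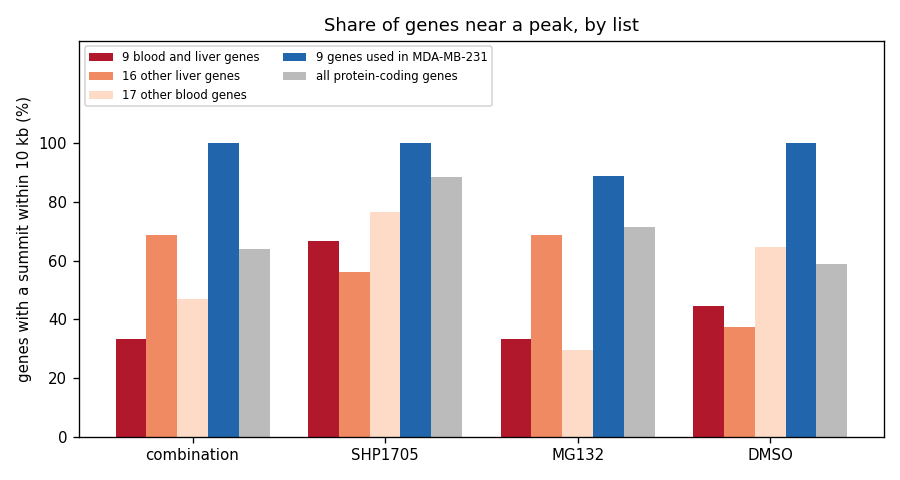
Share of genes (%) with a peak summit within 10 kb in each of the 4 lists, as bars, for the 9 blood and liver genes, 16 other liver genes, 17 other blood genes, 9 genes used in MDA-MB-231 and all 19970 protein-coding genes. The red bars of the 9 genes, at 33.3%, 66.7%, 33.3% and 44.4%, stand below the grey bars of all genes in every list, and below the blue bars of the genes used in this line.

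Among the 5 liver genes of the 9, ALB had the most peaks. It lies on chromosome 4, at 73404287 to 73421482 (hg38), and no other annotated gene reaches into its window. The combination had 1 peak, beyond the 3′ end of the gene by 6.75 kb, with 414 fragments or 14.6 FPM. SHP1705 had 1 peak at the same place, with 248 fragments or 2.10 FPM. MG132 had 1 peak, 2.66 kb upstream of the gene, with 510 fragments or 18.7 FPM. DMSO had 2 peaks, one of 275 fragments (9.25 FPM) 5.43 kb upstream and one of 712 fragments (24.0 FPM) inside the gene, 13.3 kb from its start. The last was the tallest of all 21 peaks, and higher than 94.5% of DMSO peaks. The 5 ALB peaks thus lay at 4 different places, and no place was held by all lists.

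The peak 3′ of ALB had the same first and last base in the combination and in SHP1705, 73427981 to 73428480, a width of 500 bp. In the combination its summit lay within 0.5 bp of the middle. In SHP1705 the summit lay 137.5 bp from the middle. Peaks with both ends equal in 2 lists were found in 14.5% of all 23414 regions that more than 1 list held. Near the 9 genes there were 3 such regions of several lists, among 19 (over all 223513 regions, 10.5% were held by more than 1 list), and 2 of the 3 had equal ends. These were the region 3′ of ALB and one in CD3E.

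CD3E, the T cell gene, was the other locus with a peak in all 4 lists. It lies on chromosome 11, at 118304730 to 118316173, with no other annotated gene in its window. The combination had 1 peak inside the gene, at 118310480 to 118310920, with 411 fragments or 14.5 FPM. SHP1705 had 1 peak outside it, 5.63 kb below its lower end, with 44 fragments or 0.372 FPM. MG132 had 1 peak of 66 fragments (2.42 FPM) inside the gene. DMSO had 2 peaks inside it, of 361 and 541 fragments, or 12.1 and 18.2 FPM. The MG132 peak and the smaller DMSO peak had the same ends, 118307733 to 118308127, a width of 395 bp. The MG132 summit lay 92 bp from the middle of it and the DMSO summit exactly in the middle. Inside CD3E the combination, MG132 and DMSO thus had 4 narrow peaks at 3 places, of which 1 was shared.

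**Figure D2:**
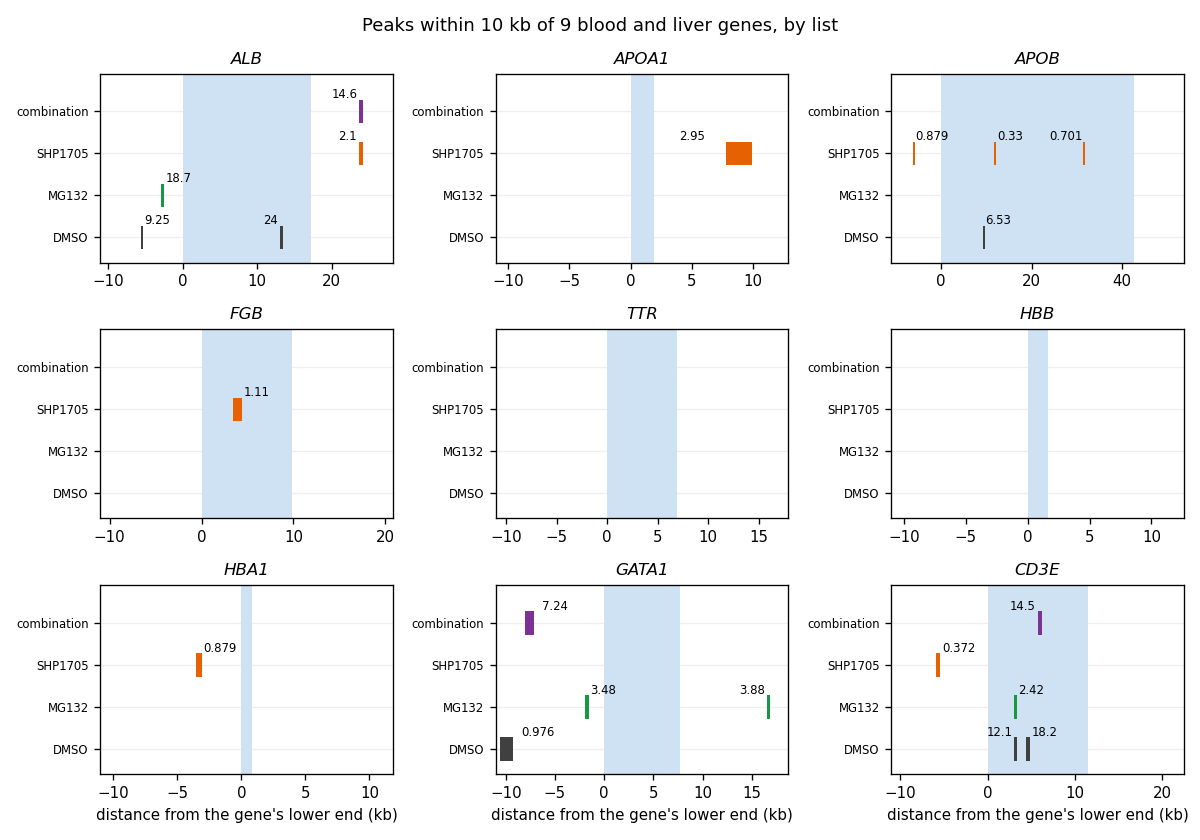
Peaks within 10 kb of each of the 9 genes, by list, drawn against the distance from the gene's lower-coordinate end (kb); the blue band is the gene, each bar spans a peak (very narrow ones widened to stay visible) and the number beside it is its pileup in FPM. ALB and CD3E have bars in all 4 rows, TTR and HBB have none, and the bars of different lists coincide at 1 place near ALB and 1 place in CD3E.

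The lipoprotein genes had peaks in SHP1705 and DMSO. APOB, the longest of the 9 at 42.6 kb, lies on chromosome 2 at 21001429 to 21044073. SHP1705 had 3 peaks there, of 104, 39 and 83 fragments or 0.879, 0.330 and 0.701 FPM, the first 6.12 kb outside the gene and the others inside it. DMSO had 1 peak inside APOB, at 21010718 to 21011094, with 194 fragments or 6.53 FPM. The combination and MG132 had none within 10 kb, and their nearest summits were 37.8 and 39.1 kb away. The lists shared no position at APOB, and the peak of 39 fragments was higher than 11.4% of SHP1705 peaks.

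APOA1, at 116835751 to 116837622 on chromosome 11, had a single peak, in SHP1705, which lay 6.31 kb above the gene and not in it. The summit was inside SIK3, a kinase gene that enters the window, and in the antisense transcript APOA1-AS. The peak began 132 bp from the lower-coordinate end of SIK3, which is read on the minus strand, so it lay at the 3′ end of SIK3 and 254 kb from the nearest listed start of that gene. It was 2082 bp wide, the widest of the 21, with 349 fragments or 2.95 FPM, the tallest of the 8 in SHP1705. The nearest summits of the other lists were 20.4 kb away in the combination, 35.4 kb in MG132 and 18.1 kb in DMSO.

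FGB, at 154562980 to 154572807 on chromosome 4, had a single peak, also in SHP1705. It lay inside the gene, 3.61 kb from the start, and was 986 bp wide with 131 fragments or 1.11 FPM. In the combination the nearest summit was 13.2 kb beyond the gene, inside FGA, which encodes the fibrinogen alpha chain, with 61 fragments. In MG132 it was 28.7 kb away and in DMSO 131 kb away.

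TTR and HBB had no peak within 10 kb in any list. TTR lies on chromosome 18 at 31591877 to 31598821. The nearest summits were 27.0 kb away in the combination, 23.8 kb in SHP1705, 30.2 kb in MG132 and 44.3 kb in DMSO. HBB lies on chromosome 11 at 5225464 to 5227071, and its window also holds HBD, the delta globin gene. The nearest summits were 71.1 kb away in the combination, 25.4 kb in SHP1705, 27.1 kb in MG132 and 31.8 kb in DMSO. A fragment there that was missing from the plasmid library cannot be told apart from one that was present and inactive, since no library of the plasmids themselves was used here.

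HBA1, at 176680 to 177522 on chromosome 16, had a single peak, in SHP1705, and it lay in another gene. It covered 173115 to 173611, inside HBA2 (172876 to 173710), the second alpha globin gene, with 104 fragments or 0.879 FPM. The coding parts of HBA1 and HBA2 are nearly identical, so an aligner cannot always tell to which gene a fragment belongs, and the assignment to HBA2 is uncertain to that extent. Its summit lay 134 bp from the middle. Its fold over the local background, 7.44, equalled that of the APOB peak of the same height, as both stood on the background of the whole SHP1705 library. The nearest summits were 18.7 kb away in the combination, 64.8 kb in MG132 and 15.2 kb in DMSO, the first and last in LUC7L.

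GATA1, at 48786590 to 48794311 on chromosome X, had 4 peaks and none of them inside the gene. The combination had 1 peak 7.31 kb upstream, 947 bp wide, with 205 fragments or 7.24 FPM. MG132 had 1 peak of 95 fragments (3.48 FPM) 1.80 kb upstream. Its other peak, of 106 fragments (3.88 FPM), lay 8.99 kb beyond the gene and inside HDAC6, the gene of a deacetylase, 1.23 kb from a listed start of that gene. DMSO had 1 peak, 9.71 kb upstream, with 29 fragments or 0.976 FPM, lower than most DMSO peaks (percentile 4.80).

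The DMSO peak upstream of GATA1 overlapped part of ACAA2P1, an annotated pseudogene of the mitochondrial thiolase gene ACAA2. It also overlapped RNU6-29P, another annotated pseudogene, and belonged to a region of 3 lists. In SHP1705 that region reached 2645 fragments or 22.4 FPM, with a summit 10.5 kb from GATA1. In MG132 it held 20 fragments or 0.733 FPM, with a summit 10.3 kb from GATA1. In DMSO it held the 29 fragments given above. The limit of 10 kb thus ran through this region, and its MG132 peak just outside and DMSO peak just inside were those nearest to the limit among all 9 genes. The SHP1705 height here was above all 8 SHP1705 heights within the windows, which ended at 2.95 FPM.

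Across the 21 peaks, 11 had their summit within 10 bp of the middle, as a pile of fragments with the same ends would. These were 2 of 3 in the combination, 3 of 8 in SHP1705 (37.5%, exact binomial 95% interval 8.52 to 75.5), 2 of 4 in MG132 and 4 of 6 in DMSO (66.7%, 22.3 to 95.7). Over whole lists the share was 55.5% in the combination, 31.4% in SHP1705, 58.7% in MG132 and 53.9% in DMSO, and the interval of each list near the 9 genes includes it. The median width near the 9 genes, in bp, was 500 for the combination, 482.5 for SHP1705, 408.5 for MG132 and 419.5 for DMSO. The 4 widest peaks, at APOA1 and FGB and, in the combination and DMSO, at GATA1, had their summit off the middle.

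The local background of a peak shows whether the fragments over its summit stood alone. The peak caller takes it from the fragments of the surrounding 10 kb, unless the average of the whole library is higher, so it gives the number of those fragments, or an upper limit. For the combination's peak of ALB this number was 415, of which 414 covered the summit. For the MG132 peak of ALB it was 511, against 510 at the summit. For the DMSO peak inside ALB it was 714, against 712 at the summit, and the other DMSO peak of ALB held 275 of 275. In these 4 cases the pile at the summit was nearly all that the library held over 10 kb. The same was true of APOB in DMSO, with 194 of 195 fragments. At CD3E in DMSO the smaller peak held 361 of 912 fragments and the larger one 541 of 911. Their summits lay 1401 bp apart, so each of these totals also counted the pile of the other peak. Together the piles of the smaller and the larger peak made up nearly all of the fragments there.

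In all, 11 of the 21 peaks stood on a background above that of their library, and in 7 of these at least 90% of the fragments of 10 kb covered the summit. They were 2 of 3 in the combination, 0 of 1 in SHP1705, 2 of 2 in MG132 and 3 of 5 in DMSO, where the share over whole lists was 51.3% in the combination, 2.38% in SHP1705, 45.7% in MG132 and 54.4% in DMSO. The lowest share, 22.6%, was that of the wide SHP1705 peak at the 3′ end of SIK3. In the combination 39.4% of the fragments of 10 kb covered the summit of the GATA1 peak, which was 947 bp wide. The share counts only fragments over the summit, so in a wide peak it leaves out others of the same peak. It is also lowered by any other peak within the 10 kb. This was the case at CD3E in DMSO, where the neighbouring peaks had shares of 39.6% and 59.4%. Of the 8 SHP1705 peaks, 7 stood on the average background of that library, so the share at their summits is known only as at least 8.90% to 56.6%. The same holds for 2 MG132 peaks, where the share was at least 65.3% in CD3E and at least 94.0% upstream of GATA1, and for the DMSO peak upstream of GATA1, where it was at least 26.3%.

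**Figure D3:**
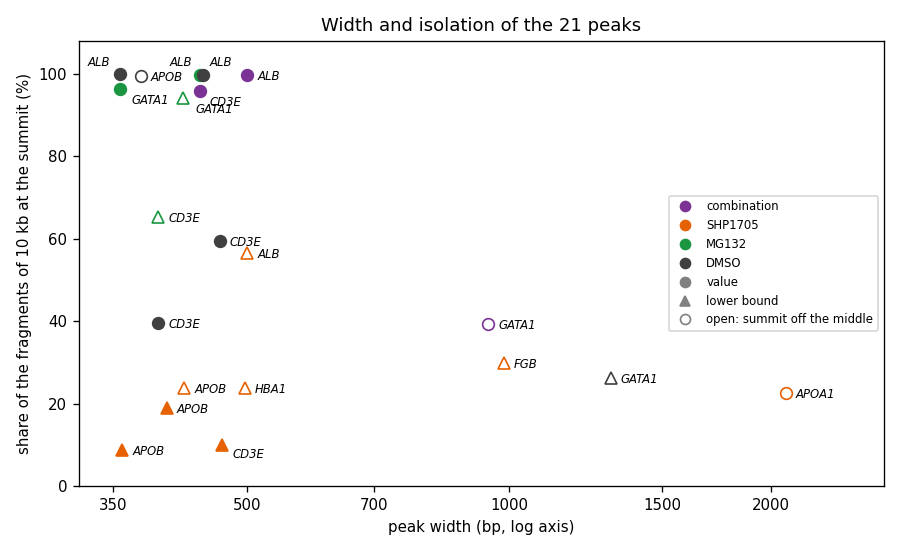
Width (bp, log axis) of each of the 21 peaks against the share (%) of the fragments in the surrounding 10 kb that cover its summit; colours are lists, circles are values, triangles are lower bounds for peaks on the library-wide background, and open symbols have their summit over 10 bp from the middle. The ALB circles of the combination, MG132 and DMSO lie at 99.7% or 99.8%, while the 4 widest peaks have values or lower bounds between 22.6% and 39.4%.

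In FPM, heights near the 9 genes were lowest in SHP1705, as they were over that whole list. The median over the peaks near the 9 genes was 14.5 FPM in the combination (lowest 7.24, highest 14.6), 0.879 in SHP1705 (0.330 to 2.95), 3.68 in MG132 (2.42 to 18.7) and 10.7 in DMSO (0.976 to 24.0). Every SHP1705 peak lay below every combination peak, and in DMSO the peak upstream of GATA1 was the only one within the SHP1705 range. Ranked by height within its own list, the median peak near the 9 genes stood at percentile 85.4 in the combination, 54.5 in SHP1705, 29.9 in MG132 and 65.5 in DMSO. In all, 13 of 21 peaks were above the median of their list. Without scaling to depth, the median was 104 fragments in SHP1705 and 100.5 in MG132, so that MG132 was the lowest.

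**Figure D4:**
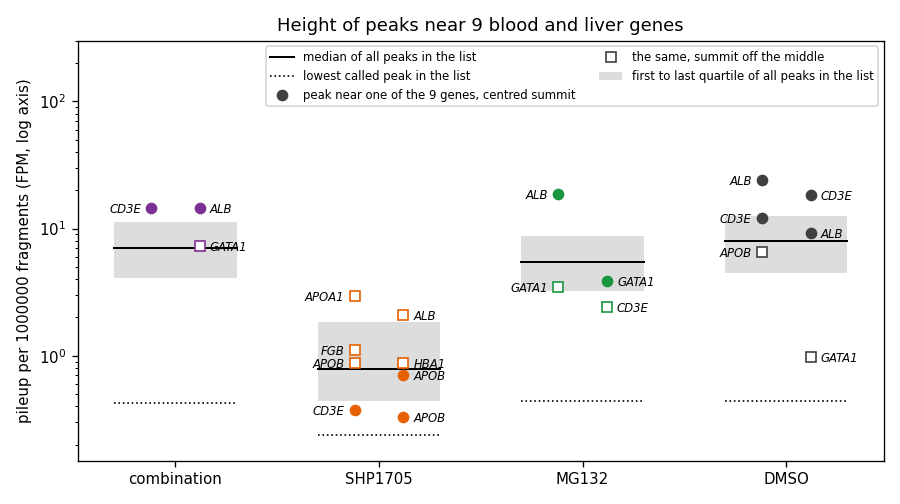
Pileup per 1000000 fragments (FPM, log axis) of each peak near the 9 genes in each list; filled circles have a centred summit and open squares do not, the grey box spans the first to the last quartile of all peaks of the list, the line is their median and the dotted line the lowest peak called. SHP1705 points run from 0.330 to 2.95 around a list median of 0.786, and the DMSO points from 0.976 to 24.0 around 8.04.

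Other genes of the same lineages were also near peaks in every list. Of 16 further liver genes, a summit lay within 10 kb of 11 in the combination, 9 in SHP1705, 11 in MG132 and 6 in DMSO. Of 17 further blood genes, the counts were 8 in the combination, 13 in SHP1705, 5 in MG132 and 11 in DMSO. As shares, the combination had a summit near 68.75% of the liver genes and 47.1% of the blood genes, where 64.0% of all protein-coding genes had one. In SHP1705 these shares were 56.25% and 76.5%, against 88.4% of all genes. In MG132 they were 68.75% and 29.4%, against 71.3%, and in DMSO 37.5% and 64.7%, against 58.8%. Neighbouring genes can count the same peak. HBA2 shares its only peak with HBA1. The fetal globin genes HBG1 and HBG2 were counted from the same peaks in SHP1705 and DMSO. CD3D and CD3G encode further chains of the T cell receptor complex and were counted from the same peaks in the combination and SHP1705. In DMSO the only peak of CD3D, of 230 fragments, had its summit inside CD3G and counted for both.

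In every list the 9 blood and liver genes had fewer peaks per length of window than genes that MDA-MB-231 is known to use. No counting interval was computed for the genes in use, so whether the difference exceeded counting error in any list is not known. For this comparison, 9 genes were taken, VIM, FN1, TGFBI, PLAU, CAV1, CD44, AXL, ACTB and GAPDH. A summit lay within 10 kb of 3 blood and liver genes against 9 genes in use in the combination, 6 against 9 in SHP1705, 3 against 8 in MG132 and 4 against 9 in DMSO. Over all protein-coding genes the share with a summit was 64.0% in the combination, 88.4% in SHP1705, 71.3% in MG132 and 58.8% in DMSO. The windows of the blood and liver genes came to 280.1 kb in all, against 487.3 kb for the genes in use. The windows of the blood and liver genes held 1.07 peaks per 100 kb in the combination, 2.86 in SHP1705, 1.43 in MG132 and 2.14 in DMSO, against 4.51, 6.77, 3.28 and 3.69 for the genes in use. In SHP1705 the median height was 0.879 FPM near the blood and liver genes (lowest 0.330, highest 2.95), against 13.8 near the genes in use (0.237 to 1576). In the combination it was 14.5 (7.24 to 14.6) against 6.21 (0.741 to 53.8). In MG132 it was 3.68 (2.42 to 18.7) against 5.83 (1.80 to 66.5), and in DMSO 10.7 (0.976 to 24.0) against 7.89 (1.01 to 60.7). The ranges overlapped in every list. The difference was not tested, as genes are not replicates and there was 1 library per treatment.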

How the data were processed

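STARR-seq reporter RNA of MDA-MB-231 cells was measured in 4 libraries, 1 per treatment, grouped by the treatment label. The tools named in the submitters' processing notes are Bowtie2, MACS2, FastQC and Trimmomatic, and the build is hg38. Per the file headers, peaks were called with MACS 2.2.6 for each library alone from paired-end fragments, with duplicates kept, no control library and a q limit of 0.01, and no peak was narrower than the mean fragment (in bp, 355 for the combination, 299 for SHP1705, 354 for MG132 and 346 for DMSO). The signal of a peak is the deposited pileup, in fragments, not scaled for depth by the authors. The fold, a ratio of pileup to local background, and the −log10 p and −log10 q are also the authors' deposited values, and they describe peaks only within their own list.

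Summits on chromosomes 1 to 22 and X were assigned with Python 3.11.15 to RefSeq genes of GRCh38.p14, which shares its chromosome coordinates with hg38. Peaks sharing at least 1 bp were merged across lists. The local background was recovered as (pileup + 1)/fold − 1, which assumes that the caller adds 1 to both sides of its ratio, and turned into fragments per 10 kb with the mean fragment length. The header gives the span of 10 kb, and under this assumption no summit in any list held over 100% of those fragments. Window counting and merging were tested on simulated peaks. The table has no exons, and no genome sequence was used, so peak sequences are not shown. The 9 genes and the other lists were chosen with earlier results of these data known. All 9 genes are named. Promoters were meant to be printed where a peak overlapped them. As none did, those in the table are shown, for FGB the window at the gene's start. Other distances, thresholds, list lengths, definitions of a centred summit and scalings were tried.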

Additional observations from a re-analysis of the deposited data

How the results depend on the processing

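No paired analysis was possible because there was 1 library per treatment. Values are given for the combination, SHP1705, MG132 and DMSO in that order unless a list is named. The share of all protein-coding genes was computed at 10 kb only, so whether counts at other distances differ from those of other genes is not known. Within 50 kb a summit lay near 8 genes in the combination, 9 in SHP1705, 8 in MG132 and 8 in DMSO. These windows held 15, 42, 14 and 17 peaks and 6 regions of several lists. Within 20 kb the combination had 5 genes and 5 peaks. Within 5 kb it had 1 gene and 1 peak, which was centred (100%), SHP1705 had 3 genes and 4 peaks, and 1 region was held by several lists. Inside the genes alone, the combination had 1 gene and 1 peak (100% centred), SHP1705 2 genes and 3 peaks, MG132 1 gene and 1 peak (0% centred, 2.42 FPM), and 1 region was shared. The median pileup was 411 fragments in the combination, 104 in SHP1705, 100.5 in MG132 and 318 in DMSO. Divided by the median pileup of the list it was 2.07 in the combination, 1.12 in SHP1705, 0.679 in MG132 and 1.33 in DMSO, so that on both scales the lowest was MG132 and not, as in FPM, SHP1705. Without the SHP1705 list, an alternative chosen after seeing the data, 4 genes and 13 peaks were left, since APOA1, FGB and HBA1 had peaks in that list alone. Of 114 values recomputed, 79 moved by no more than 1.5 times or, for shares, stayed within the counting interval. Among them were all those with a −log10 q of at least 5 and with only the 47822 strongest peaks of each list. These intervals rest on few peaks and are wide. With only the strongest peaks the centred share of SHP1705 went from 37.5% to 16.7% and still counted as unmoved. Raw pileup and the ratio to the list median were compared with FPM, so a change of unit could count as a move. The tally is therefore no measure of robustness. In FPM the lowest pileup called was below the other 3 lists in SHP1705. In fragments it was above them, at 28, against 12 in the combination, 12 in MG132 and 13 in DMSO. Whether depth accounts for this was not tested.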

Other observations

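The red cell transcription factor KLF1, one of the further blood genes, had the tallest peak of all further liver and blood genes in SHP1705, at 109 fragments per 1000000 (12843 fragments). The summit lay in the neighbouring gene GCDH, on RPS6P25, an annotated pseudogene of a ribosomal protein gene. MG132 had a peak on RPS6P25 of 102 fragments (3.74 FPM). In the combination and DMSO the tallest peaks near KLF1 lay in DNASE2, with 316 and 654 fragments.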
